A study of Mus musculus with 7 samples.

Results

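The genes described here are the SIRPA-CD47 and Siglec-CD24 phagocytosis checkpoints, measured in CD11b-sorted tumour-associated macrophages. Phagocytosis checkpoints are receptor and ligand pairs by which a target cell holds back the macrophage that touches it. They were taken by symbol from the deposited table of 25571 rows, and all 8 were present: Sirpa, Cd47, Cd24a, Siglecg, Siglece, Siglech, Siglec1 and Cd33. The tested libraries came from 4 Pracinostat samples, and 3 DMSO samples served as the control. Pracinostat inhibits zinc-dependent histone deacetylases. Mice took it orally by gavage, 30 mg/kg per dose and 4 doses weekly over 3 weeks, starting on day 7 of tumour growth. The labels also give 3 mg/kg for the prepared drug, and do not say how the values relate. The DMSO group was given only the solvent, a mixture of DMSO, PEG300, Tween-80 and PBS. In both groups T387 glioblastoma cells, which are human, had been implanted in the brains of NSG mice, a strain without T cells, B cells or NK cells. The study asked which drugs enhance phagocytosis by glioblastoma macrophages. The comparison here asks whether transcripts of these 8 genes differed after treatment. The labels call the samples biological replicates but do not say whether each came from 1 animal or a pool. The p-values therefore set group differences against the spread between these samples, which may not be that between animals.

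SIRPA is an inhibitory receptor of macrophages. When it binds CD47 on a neighbouring cell, its cytoplasmic ITIM motifs recruit the phosphatases SHP-1 and SHP-2, and engulfment is held back. Siglecs are sialic acid-binding lectins. Siglec-G in mice corresponds to human Siglec-10, which was described as a receptor for CD24, and Siglec-E is an ITIM-bearing Siglec of mouse myeloid cells. Siglec-H and mouse CD33 can pair with the activating adaptor DAP12, and sialoadhesin, the product of Siglec1, lacks an ITIM and serves in adhesion. In the brain Siglec-H is known as a marker of microglia, and sialoadhesin of macrophages at the brain's borders. The SIRPA allele of the NOD background that NSG mice carry binds human CD47 strongly. The values below are of mouse genes, so Cd47 and Cd24a are taken as those of the sorted mouse cells. Whether reads of human origin were counted among them was not tested. The ligands on the human tumour cells were not measured.

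Totals per library ranged over 10142753 to 16950597 counts, with 16319 to 19244 genes detected. Levels are given as CPM, counts relative to the TMM-scaled library total. Macrophage markers matched the label. The gene of the sorted antigen CD11b, Itgam, was at 1448 to 2579 CPM with Pracinostat and 1318 to 1688 CPM with DMSO, and all 8 macrophage markers were detected in every library. Some libraries stood apart. Neutrophil markers summed to 6.22 CPM in Pracinostat replicate 3 and 8.12 CPM in DMSO replicate 3, against 42.1 to 226 CPM in the others. Fibroblast markers summed to 698 CPM in Pracinostat replicate 1 and 1060.4 CPM in DMSO replicate 2, against 19.5 to 61.9 CPM in the others.

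None of the 8 checkpoint genes differed between Pracinostat and DMSO beyond the spread between libraries. By edgeR's quasi-likelihood test, 0 of the 8 had an adjusted p under 0.05, and 0 had an unadjusted p under 0.05. Over all 15822 genes tested, 0.0% passed the adjusted threshold and 4.18% the unadjusted one. DESeq2 and limma-voom also called 0 of the 8, against 0.16% and 0.0% of the genes each tested. The groups overlapped for each of the 8 genes, whereas non-overlapping groups were found for 6.1% of the genes in the fit, 3.51% with Pracinostat higher and 2.59% with it lower. Of the 8 fold changes 3 were positive and 5 negative, with a median of -0.02 on the log2 scale, against 52.3% positive and a median of 0.02 over all genes. All 8 genes passed the low-count filter.

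**Figure D1:**
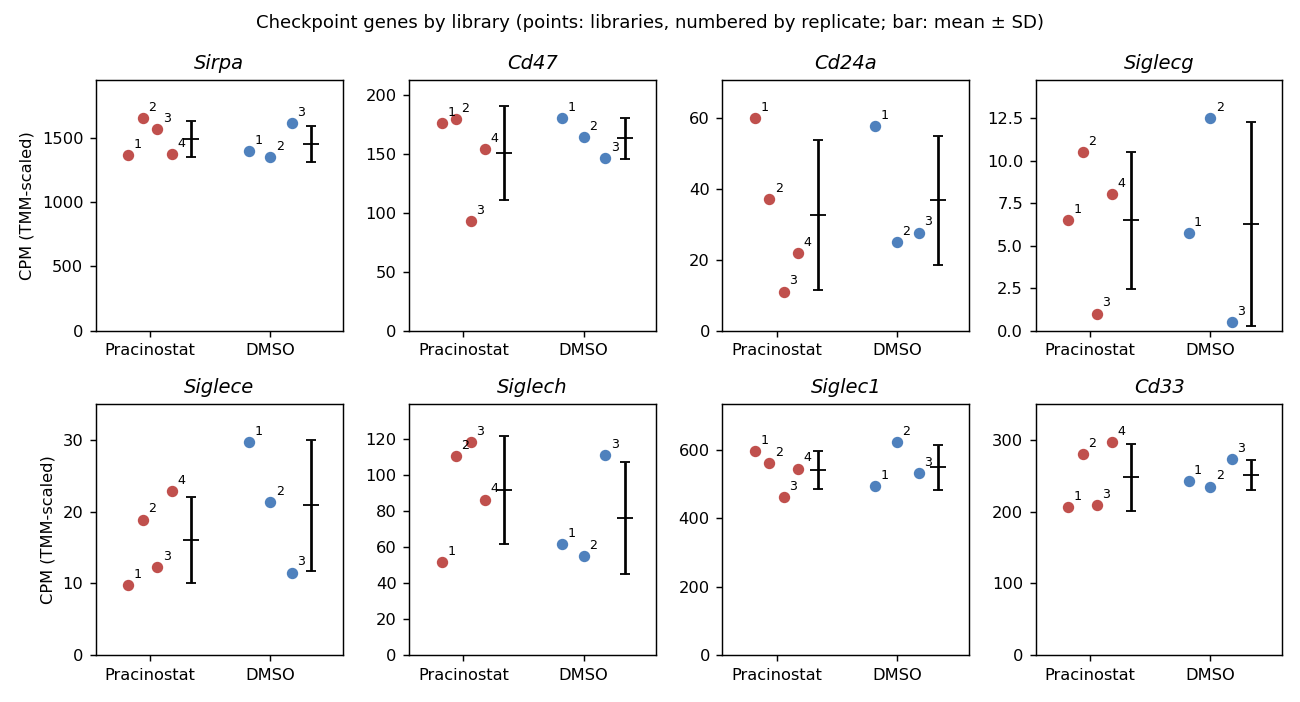
Level of each checkpoint gene in CPM (vertical axis from 0, linear, scaled per gene) in the 4 Pracinostat and 3 DMSO libraries. Points are libraries numbered by replicate and bars are mean ± SD. The groups overlap in all 8 panels, and Siglecg is near 0 in replicate 3 of each group.

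Sirpa, the receptor, was expressed at a high and even level. It stood at 1368, 1659, 1574 and 1379.6 CPM in Pracinostat replicates 1 to 4, against 1399, 1352 and 1618 CPM in DMSO replicates 1 to 3. The highest library was 1.23 times the lowest, and each group held both low and high libraries. The log2 fold change was 0.04 ± 0.14 (SE), with a 95% interval of 0.83-fold to 1.27-fold (edgeR adjusted p = 0.9998). Sirpa rested on 14268 to 27253 counts per library, so counting error was a small part of its spread.

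Cd47, the ligand, which macrophages also carry on their own surface, stood at 176, 179, 92.8 and 154 CPM in Pracinostat replicates 1 to 4, against 180.2, 164 and 146 CPM in DMSO replicates 1 to 3. Pracinostat replicate 3 was the lowest of all libraries, and the other 3 Pracinostat libraries lay within the DMSO range. The fold change was -0.12 ± 0.21 on the log2 scale, with an interval of 0.675-fold to 1.26-fold. Without Pracinostat replicate 3 it was 0.05.

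Cd24a encodes CD24, a small GPI-anchored glycoprotein and the proposed Siglec-10 ligand, which neutrophils and immature neural cells also express. It stood at 60.1, 37.2, 11 and 22 CPM in Pracinostat replicates 1 to 4, against 57.9, 25 and 27.7 CPM in DMSO replicates 1 to 3. Replicate 1 was the highest library of each group and Pracinostat replicate 3 the lowest of all, a 5.44-fold range. The fold change was -0.18 ± 0.55 on the log2 scale. Its interval, 0.372-fold to 2.11-fold, leaves changes of 2-fold in either direction undecided. Leaving out 1 library moved the fold change between -0.64 and 0.31, the lowest without Pracinostat replicate 1 and the highest without DMSO replicate 1.

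Siglecg, the Siglec that recognises CD24, was the lowest and the most uneven of the checkpoint genes. It stood at 6.48, 10.5, 0.992 and 8.03 CPM in Pracinostat replicates 1 to 4, against 5.74, 12.5 and 0.515 CPM in DMSO replicates 1 to 3. Replicate 3 was near 0 in both groups, with 15 counts in Pracinostat and 8 counts in DMSO, while the other libraries held 73 to 172 counts. The highest library was 24.2 times the lowest. The fold change was 0.06 ± 0.91 on the log2 scale with an interval of 0.259-fold to 4.18-fold, so changes as large as 2-fold were not detectable for this gene. It was -0.49 without DMSO replicate 3, 0.42 without Pracinostat replicate 3 and 1.05 without DMSO replicate 2, the highest library.

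Siglece, the ITIM-bearing Siglec-E, stood at 9.75, 18.9, 12.3 and 22.9 CPM in Pracinostat replicates 1 to 4, against 29.7, 21.4 and 11.5 CPM in DMSO replicates 1 to 3. Pracinostat replicate 1 was the lowest of all libraries and DMSO replicate 1 the highest, and 3 of the 4 Pracinostat libraries lay between the lowest and highest DMSO values. It had the most negative fold change of the 8, at -0.39 ± 0.39 on the log2 scale (edgeR adjusted p = 0.9998, unadjusted p = 0.33), with an interval of 0.432-fold to 1.35-fold. Without DMSO replicate 1 the fold change was -0.04, and without DMSO replicate 3 it was -0.68.

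Siglech, the microglial Siglec, had the most positive fold change, at 0.27 ± 0.31 on the log2 scale (edgeR adjusted p = 0.9998, unadjusted p = 0.408). It stood at 51.4, 110.3, 118 and 86.2 CPM in Pracinostat replicates 1 to 4, against 61.3, 54.9 and 111 CPM in DMSO replicates 1 to 3. Each group held libraries at both ends of this range. The interval ran from 0.747-fold to 1.94-fold. Without DMSO replicate 3 the fold change was 0.66 (edgeR unadjusted p = 0.0448, adjusted p = 0.899), and without DMSO replicate 2 it was 0.08.

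Siglec1, or sialoadhesin, stood at 598, 561, 463 and 546 CPM in Pracinostat replicates 1 to 4, against 495, 623 and 532 CPM in DMSO replicates 1 to 3. Its libraries differed by at most 1.35-fold, with a fold change of -0.02 ± 0.15 on the log2 scale and an interval of 0.788-fold to 1.23-fold. Cd33, the mouse relative of the human Siglec-3, stood at 207, 280.5, 209 and 297 CPM in Pracinostat replicates 1 to 4, against 243, 235 and 274 CPM in DMSO replicates 1 to 3. The Pracinostat libraries fell on either side of the DMSO libraries. The Cd33 fold change was -0.01 ± 0.17 on the log2 scale, with an interval of 0.77-fold to 1.27-fold.

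**Figure D2:**
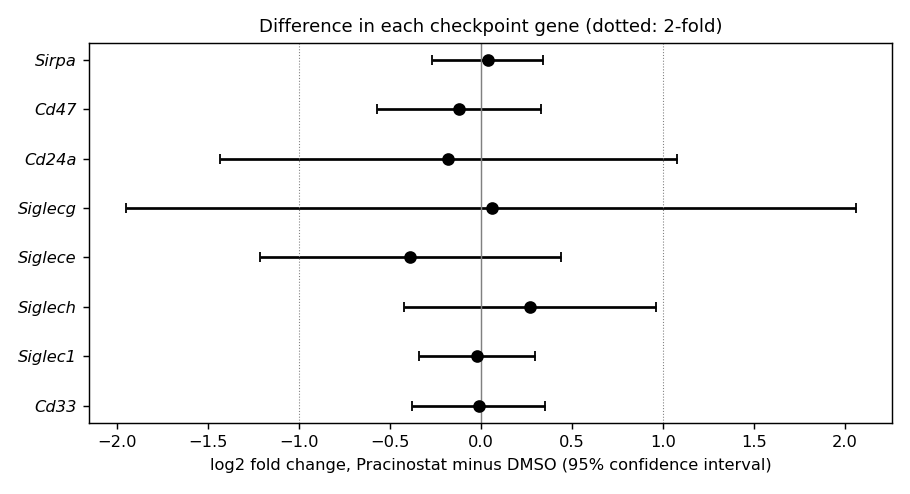
Log2 fold change of Pracinostat minus DMSO (horizontal axis) for each checkpoint gene, as the edgeR estimate with its 95% confidence interval over 4 Pracinostat and 3 DMSO libraries. All 8 intervals include 0, and dotted lines mark 2-fold. The intervals of Sirpa, Cd47, Siglech, Siglec1 and Cd33 lie between the dotted lines.

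The precision of these comparisons differed between genes. For 5 of the 8, namely Sirpa, Cd47, Siglech, Siglec1 and Cd33, the 95% interval lay within 2-fold in either direction, and for 4 of them, all but Siglech, it lay within 1.5-fold. For Cd24a and Siglecg it reached past 2-fold in both directions, and for Siglece only in the lower one, so a 2-fold decrease of Siglece could not be told apart from no difference. In these bulk samples fewer cells of a type and less RNA per cell cannot be told apart either.

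Per kilobase of transcript, Sirpa was the highest of the checkpoint genes and Siglecg the lowest in every library. With the longest coding transcript of each gene as its length, the means over 7 libraries were 371 ± 33.4 CPM per kilobase (SD) for Sirpa, 85.4 ± 8.7 for Siglec1 and 43.5 ± 6.2 for Cd33. They were 36.9 ± 12.6 CPM per kilobase for Siglech, 29.7 ± 5.87 for Cd47, 18.9 ± 10.2 for Cd24a, 9.77 ± 3.93 for Siglece and 2.49 ± 1.74 for Siglecg. The ranges of neighbours overlapped from Cd33 to Siglece, although Cd47 was above Cd24a in each of the 7 libraries. Sirpa and Siglec1, Siglec1 and Cd33, and Siglece and Siglecg had ranges that did not overlap. The middle of this order depends on the transcript chosen. With the shortest principal transcript, Cd33 averaged 139 and Cd47 119 CPM per kilobase, both above Siglec1, while Sirpa at 402 remained highest and Siglecg lowest.

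The spread of the uneven genes ran across the treatment groups. Siglecg was low in the same 2 libraries, replicate 3 of each group, in which neutrophil markers were lowest. Of the 9 neutrophil markers, 6 were at 0 counts in Pracinostat replicate 3 and 5 in DMSO replicate 3, among them Retnlg, Camp, Ltf and Ngp, against 0 to 2 in the other libraries. The summed level of the 9 markers ranged from 6.22 to 226 CPM over the Pracinostat libraries and from 8.12 to 224 CPM over the DMSO libraries. Siglecg did not follow them in DMSO replicate 2, its highest library, where they summed to 42.1 CPM. The 6 conventional dendritic cell markers summed to 360.3, 358, 109.9 and 168 CPM in Pracinostat replicates 1 to 4, against 155, 180.1 and 154 CPM in DMSO replicates 1 to 3. Their sum, mostly Itgax, did not set DMSO replicate 3 apart. Flt3, Zbtb46, Clec9a and Cd209a had their 2 lowest values in the replicate 3 libraries, and Xcr1 and Itgax did not. Flt3 was at 8.66 CPM in Pracinostat replicate 3 and 12.3 CPM in DMSO replicate 3, against 32.3 to 45.4 CPM in the others. The 7 monocyte markers, whose sum is mostly Fn1, came to 6035, 5722, 9902 and 3195 CPM in Pracinostat replicates 1 to 4, against 5734, 5224 and 4060 CPM in DMSO replicates 1 to 3. That sum was highest in Pracinostat replicate 3, where Siglecg and Cd24a were low. B cells are known to express Siglecg too. The 6 B cell markers summed to 43.5 to 67.2 CPM with Pracinostat and 46.7 to 70.1 CPM with DMSO, mostly from Ighm at 38.1 to 62.9 CPM with Pracinostat and 41.6 to 61 CPM with DMSO. Cd79b was at 3.9 to 4.83 CPM with Pracinostat and 5.11 to 9.08 CPM with DMSO, while Ms4a1, Cd79a and Pax5 were at most 0.397 CPM with Pracinostat and at 0 with DMSO. The part of these cells in the Siglecg and Cd24a values was not tested.

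**Figure D3:**
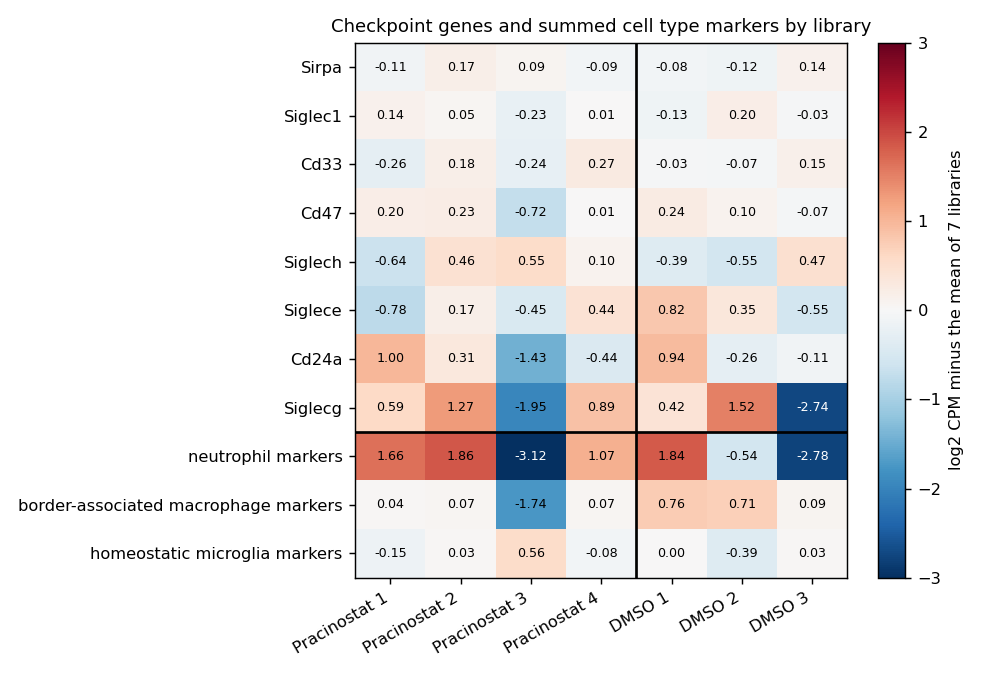
Deviation of each library from the mean of the 7 libraries, on the log2 CPM scale, for the 8 checkpoint genes (above the line) and for the summed markers of 3 cell types (below it), with Pracinostat libraries left of DMSO libraries. Red is above and blue below the mean. Siglecg falls to -1.95 in Pracinostat replicate 3 and -2.74 in DMSO replicate 3, whereas Sirpa stays between -0.12 and 0.17.

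Cell identity markers also varied beside the other Siglecs. Border-associated macrophage markers summed to 321 CPM in Pracinostat replicate 3 and 1099 to 1127 CPM in the other Pracinostat libraries. With DMSO they summed to 1142 to 1816 CPM, so the groups did not overlap in this sum. Among single genes tested, 2.59% had Pracinostat lower without overlap. The difference in the sum was not tested. Of these 8 markers, 0 had a positive fold change, against 52.3% over all genes tested. Siglec1 was lowest in Pracinostat replicate 3, at 463 CPM. DMSO replicate 1, with the highest marker sum of 1816 CPM, had the next lowest Siglec1 at 495 CPM. Most of that sum was F13a1, at 1174 CPM. Lyve1, Cd163, Pf4, Ms4a7 and Clec10a were higher in DMSO replicate 2, where Siglec1 was highest at 623 CPM, than in DMSO replicate 1. Mrc1 and Cbr2 were lower in DMSO replicate 2. Homeostatic microglia markers, of which 9 of 10 were in the table, summed to 4702, 5345, 7733 and 4953 CPM in Pracinostat replicates 1 to 4, against 5218, 4005 and 5346 CPM in DMSO replicates 1 to 3. Pracinostat replicate 3 was highest for these markers and for Siglech, whereas DMSO replicates 1 and 3 had similar marker sums and Siglech at 61.3 and 111 CPM. Plasmacytoid dendritic cells are known to express Siglech too. Their markers, of which 7 of 8 were in the table, summed to 546 to 698 CPM with Pracinostat and 550.2 to 573 CPM with DMSO, mostly from Irf8 and Tcf4. Pacsin1 and Cox6a2 were at 3.04 to 11.5 CPM over all libraries, Spib at 0.463 to 3.75 CPM, Ccr9 at 0 to 2.38 CPM and Klk1 at 0 to 0.136 CPM. The part of cell composition in the Siglec1 and Siglech values was not tested.

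The genes whose log2 CPM most resembled each checkpoint gene over the 7 libraries were picked by Pearson's r from 10032 named genes, as a description without a test. The 3 highest values for each gene lay between 0.934 and 0.985, all over the same 7 libraries. For Sirpa they were Dhx37, Lrrc8b and Braf, and for Cd47 Ocrl, Pira1 and Nedd9. Mrm1, Tpt1 and Amz1 came highest for Cd24a, and for Siglecg Coro2a, Tle1 and Cd177, a neutrophil surface protein. Siglece had Susd1, Nudt16l1 and Atpaf2, and Siglech had Sbf2, Irf2bpl and Gcn1. Siglec1 had Slc30a1, Dcaf8 and Mapk6, and Cd33 had Notch1, Eeig1 and Wdr47.

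The genes around the checkpoints were listed by role in 9 groups of 85 genes, of which 81 were in the table and 75 were tested. By edgeR 0 of the 75 passed the adjusted threshold, as did 0 by DESeq2 and 0 by limma-voom. At an unadjusted p under 0.05 there were 2 higher and 2 lower genes, against 2.81% higher and 1.37% lower over all genes tested. Positive fold changes were seen for 41 of the 75, and the median was 0.02, equal to that of all genes. Groups did not overlap for 3 of the 75, all with Pracinostat higher, against 3.51% higher and 2.59% lower over all genes tested.

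Among other Siglecs and relatives of SIRPA, 3 of 7 tested genes were positive, with a median of -0.03. Siglecf, known as a marker of mouse eosinophils and alveolar macrophages, stood at 48.5, 40.1, 21.8 and 28.2 CPM in Pracinostat replicates 1 to 4, against 14, 14.8 and 25.6 CPM in DMSO replicates 1 to 3. Only Pracinostat replicate 3 fell within the DMSO range. Its fold change was 0.93 ± 0.33 on the log2 scale (edgeR unadjusted p = 0.0136, adjusted p = 0.9998), so it did not pass. Of 5 eosinophil markers only 2, Ccr3 and Ear2, were in the table, and they summed to at most 1.67 CPM in any library. Prg2, Epx and Ear1 were not in it. Cd22 was at 0.32 ± 0.32. The 3 Sirpb1 genes are near-identical copies that share reads, so their separate values are uncertain. Sirpb1c, named after its values were seen, stood at 29.9, 22, 2.71 and 28.3 CPM in Pracinostat replicates 1 to 4, against 41.7, 36 and 18.2 CPM in DMSO replicates 1 to 3, and was lowest in Pracinostat replicate 3.

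The CD47 group held other CD47 ligands, integrin partners and enzymes that cyclise the CD47 terminus, and 3 of its 6 tested genes were positive. Qpct, a secreted glutaminyl cyclase, stood at 11.1, 15.3, 11 and 9.19 CPM in Pracinostat replicates 1 to 4, against 6.76, 3.04 and 7.09 CPM in DMSO replicates 1 to 3. Its groups did not overlap, and its fold change was 1.05 ± 0.45 on the log2 scale (edgeR unadjusted p = 0.0352, adjusted p = 0.9998). Qpctl, the Golgi enzyme that modifies CD47, averaged 4.25 CPM with Pracinostat and 8.04 CPM with DMSO, at -0.92 ± 0.66, and is named after its values were seen. Thbs2, a matrix protein of the thrombospondin family, was at -0.60 ± 0.29. Thbs1, the better known CD47-binding thrombospondin and also named after its values were seen, stood at 253 CPM in Pracinostat replicate 3, against 904 to 2376 CPM in the other Pracinostat libraries and 1443 to 1630.5 CPM with DMSO.

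Downstream of SIRPA, the phosphatases and adaptors varied little. The fold changes of the 10 tested genes lay between -0.10 and 0.13 on the log2 scale, with 4 positive and a median of -0.01. Ptpn6, which encodes SHP-1, averaged 322 CPM with Pracinostat and 345 CPM with DMSO, at -0.10 ± 0.16. Ptpn11, which encodes SHP-2, averaged 143 CPM with Pracinostat and 131 CPM with DMSO, at 0.13 ± 0.18. Ptk2b, an adhesion kinase, was at 0.13 ± 0.15. Of the 9 ITAM adaptors and Src family kinases, 6 were positive with a median of 0.10. Tyrobp, which encodes DAP12, was at -0.09 ± 0.19, and the kinase Src was at 0.51 ± 0.31.

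Enzymes of the sialic acid ligands gave no call either. Of 8 genes of sialic acid synthesis and transport 5 were positive, with a median of 0.03. Gne, the enzyme that starts sialic acid synthesis, averaged 20.3 CPM with Pracinostat and 20.1 CPM with DMSO, at 0.02 ± 0.34. Cmah, which converts sialic acid to its glycolyl form, was at -0.59 ± 0.75, and Npl, a sialic acid lyase, at 0.14 ± 0.20. Of 15 sialyltransferases tested 7 were positive, with a median of -0.07, and St3gal6 and St3gal3 were at 0.39 ± 0.25 and 0.49 ± 0.37. The sialidases Neu1 and Neu3 were at 0.03 ± 0.21 and 1.17 ± 1.19, Neu3 at no more than 4.69 CPM in any library and at 0 in DMSO replicate 2. The Neu3 value was 0.60 without DMSO replicate 2, 2.19 without DMSO replicate 3 and 2.40 by limma-voom.

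Other phagocytosis brakes had 4 of 10 genes positive and a median of -0.07. Cd300a, an inhibitory receptor for phosphatidylserine, stood at 107, 90.1, 48.9 and 89.7 CPM in Pracinostat replicates 1 to 4, against 144, 155 and 106 CPM in DMSO replicates 1 to 3. Pracinostat replicate 1 lay just above DMSO replicate 3, and the other Pracinostat libraries lay below all DMSO libraries. The fold change was -0.69 ± 0.24 on the log2 scale (edgeR unadjusted p = 0.0116, adjusted p = 0.9998). It was -0.50 without Pracinostat replicate 3 and -0.83 without DMSO replicate 3. Pirb, the paired immunoglobulin-like receptor B, averaged 39.5 CPM with Pracinostat and 63.2 CPM with DMSO. Its fold change was -0.68 ± 0.31 (edgeR unadjusted p = 0.0471, adjusted p = 0.9998). The groups overlapped, at 19.5 to 51.5 CPM with Pracinostat and 42.6 to 75.8 CPM with DMSO. Pracinostat replicate 3 was the lowest library for Pirb. Without it the Pirb value was -0.45, and without DMSO replicate 3 it was -0.90. On the engulfing side, 7 of the 8 tested partners of the CD47 axis were positive, against 52.3% over all genes. Their median was 0.05, against 0.02 over all genes. Itgam, the gene of the sorted antigen, was at 0.30 ± 0.20, and at 0.08 without Pracinostat replicate 3. Fcgr4 was at 0.36 ± 0.25, and at 0.10 without DMSO replicate 3.

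**Figure D4:**
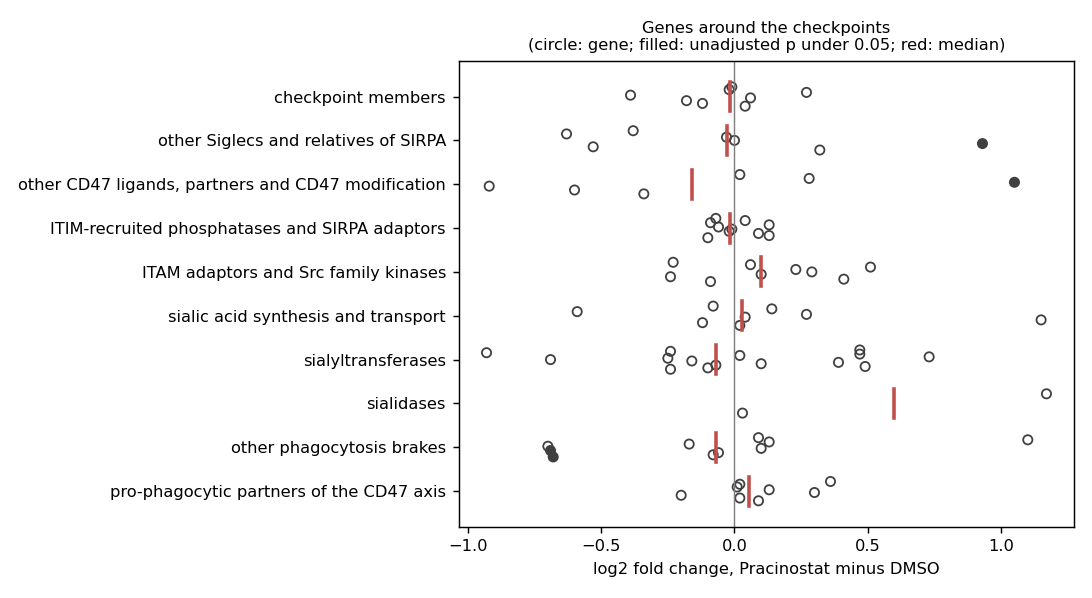
Log2 fold change of Pracinostat minus DMSO (horizontal axis) of each tested gene, by group (rows), with the 8 checkpoint genes in the top row. Circles are genes, filled where the unadjusted edgeR p is under 0.05, and red bars are group medians. The 4 filled circles are Siglecf, Qpct, Pirb and Cd300a, and 0 of the genes shown passed after adjustment.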

How the data were processed

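RNA of CD11b-sorted cells was made into stranded total RNA libraries from 1 ng and sequenced as pairs of 150 bases over 2 lanes, per the labels' protocols. Trim Galore, STAR, RSEM, FastQC, MultiQC, DESeq2 and the build GRCm39 are named in the submitters' processing notes. Not given in the sources used here are versions, roles, annotation and strand setting. The authors deposited expected counts by gene symbol, as whole numbers with no normalization.

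Pracinostat was compared with DMSO on the whole table by the two-sided quasi-likelihood test of edgeR 4.0.16 under R 4.3.3, with robust dispersions. Scaling was TMM, and filterByExpr (minimum count 10) kept 15822 genes, over which Benjamini-Hochberg adjustment was made with a threshold of 0.05. Fold changes are Pracinostat minus DMSO ± SE, and 95% intervals use the fit's degrees of freedom. Log2 CPM used a prior count of 2. Transcript lengths came from GENCODE M21, which is of another build, so no coordinates are given. Fyb was matched to Fyb1 through RefSeq synonyms.

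All 8 checkpoint genes are described. From each related list the 2 genes with the smallest p were named, or all where a list had at most 4, plus Ptpn6, Ptpn11, Tyrobp and Gne, and for each checkpoint gene the 3 most similar genes among those whose log2 CPM averaged 2 or more. A gene that this rule names is not reported here. The members and lists were chosen with earlier results of these data known. The test was checked on simulated data. No libraries were duplicates (chi-square of counts divided by its degrees of freedom was 30.0 or more in every pair). Alternatives covered scaling, filter, DESeq2 1.42.0, limma-voom (limma 3.58.1), robust estimation, leaving out libraries, the replicate number as a block and exact permutation.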

Additional observations from a re-analysis of the deposited data

Results flagged for a closer look

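Dixon's test at 95% was applied to 44 values of the 4 Pracinostat libraries, to find a library far from the other 3. By chance about 1 in 20 values would be picked out. It picked out 5, all of them summed markers, and 0 of the 8 checkpoint genes. The 3 DMSO libraries were too few to screen. Pracinostat replicate 3 stood apart in 3 of the 5. Its macrophage markers summed to 10067 CPM, against 7941 to 8099 CPM in the other Pracinostat libraries and 6763 to 8568 CPM with DMSO. Its border-associated macrophage markers summed to 321 CPM, against 1099 to 1127 CPM and, without overlap between the groups, 1142 to 1816 CPM with DMSO. Its B cell markers, a sum that is mostly Ighm, were at 67.2 CPM, against 43.5 to 47.2 CPM and 46.7 to 70.1 CPM with DMSO. Pracinostat replicate 1 had oligodendrocyte markers at 1046 CPM, against 212 to 351 CPM and 189.5 to 362 CPM with DMSO. Its fibroblast markers were at 698 CPM, against 19.5 to 40.4 CPM and 19.6 to 1060.4 CPM with DMSO.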

How the results depend on the processing

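The count of called checkpoint genes and that of the related lists was 0 under each alternative fitted over all genes, including each left-out library (range 0 to 0). The exact permutation test was run for the 8 checkpoint genes only, and its p-values were 0.486 to 0.914. Over all genes, 0 calls became 63 with no low-count filter, 27 with DESeq2, 4 with the replicate number as a block, and 0 to 3 with 1 library left out (3 without DMSO replicate 3). Leaving out both libraries lowest in neutrophil markers, an alternative chosen after seeing the data like that on collagen, gave 10. The causes were not tested. Of 152 alternative values for the 8 genes, 18, over 6 genes, had the opposite sign after rounding and 134 did not. The 134 include Siglecg scaled by library totals only, which rounded to 0. With 1 library left out, log2 fold changes ranged from -0.02 to 0.12 for Sirpa, -0.22 to 0.05 for Cd47, -0.64 to 0.31 for Cd24a, -0.49 to 1.05 for Siglecg, -0.09 to 0.08 for Siglec1 and -0.12 to 0.07 for Cd33. Siglece (-0.68 to -0.04) and Siglech (0.08 to 0.66) kept their sign. Among related genes the ranges were -0.05 to 0.27 for Ptpn11, -0.04 to 0.14 for Neu1, -0.27 to 0.02 for Tyrobp and -0.20 to 0.22 for Gne. Without both neutrophil-poor libraries the values changed sign to -0.12 for Siglecg, 0.03 for Siglec1, 0.14 for Cd33, 0.29 for Cmah, -0.06 for Npl, 0.14 for Tyrobp and -0.33 for Gne. Without both collagen-rich libraries they were 0.04 for Siglec1, 0.03 for Cd33, -0.04 for Cd22 and -0.04 for Ptpn11. That alternative also moved Cd24a to -0.86 and Siglecg to 1.07. Scaling by library totals only gave -0.01 for Gne.

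The replicate numbers were not taken as pairs: deviations of same-numbered libraries correlated at 0.0445, -0.0352 and 0.0728, against -0.074 to 0.0511 for other numbers. The block, which leaves out Pracinostat replicate 4, gave -0.04 for Neu1 and changed no call among the genes named. With 4 against 3 libraries the smallest exact permutation p is 0.0286. Siglecg rested on the fewest counts of the checkpoint genes, 8 to 172 per library. Its lowest count, 8, was in DMSO replicate 3, which had a total of 15853430 counts. Pracinostat replicate 4, with the lowest total of 10142753, held 83. The part of depth in the spread of Siglecg was not tested.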
